A study of Mus musculus with 48 samples.

Results

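The genes described here encode 3 colony-stimulating factors (Csf1, Csf2 and Csf3), the interleukin-1 ligands Il1a and Il1b with their antagonist Il1rn, and 2 cytokines of the interleukin-6 family, Il6 and Lif. They are 8 of 18961 protein-coding genes with a probe set of a single gene symbol on 48 Affymetrix Mouse Gene 2.1 ST arrays. They were chosen as a group of secreted factors, with earlier results of these data known. The arrays profiled 4T1 cells, a triple-negative mouse mammary carcinoma line of Balb/c origin, made to carry either mCherry with Renilla luciferase (mCh/rL) or GFP with firefly luciferase (GFP/fL) by lentivirus under puromycin selection. Sub-clones were re-grown ex vivo under 6-thioguanine from tumors in adult Balb/c mice and compared with the parental lines. TV-LuM sub-clones were grown from metastases in the lungs of mice given 4T1 cells by tail vein, and the labels do not give their reporter (1 and 2 on day 14, 1 on day 38; 9 arrays). AxLN-LuM sub-clones came from lung metastases of mCh/rL cells micro-injected into the axillary lymph node (1 on days 14, 36 and 43, 5 on day 14; 12 arrays). AxLN sub-clones came from the lymph node tumors that grew from the same kind of injection (tumors 1 and 2, each on days 7 and 14; 12 arrays). MFP sub-clones came from mammary fat pad tumors of GFP/fL cells on day 28 (tumors 1 and 2; 7 arrays), and each parental line had 4 arrays. RNA was taken before cultures were confluent. The labels mark AxLN tumor 1 day 14, AxLN-LuM 5 day 14 and 1 array of MFP tumor 1 as removed. These are shown and counted in the sub-clone levels, and entered the group comparisons only where stated. Each sub-clone is a population selected in culture from 1 tumor or metastasis. The labels do not state that a number shared between days is the same tumor or metastasis. For AxLN-LuM 1 on days 36 and 43, the titles name different source samples. AxLN tumor 1 was on one hybridization plate and tumor 2 on the other, so tumor number and plate cannot be told apart.

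Colony-stimulating factors act on cells of the myeloid lineage. CSF-1 (M-CSF) drives monocytes and macrophages through Csf1r, CSF-2 (GM-CSF) acts on granulocytes, macrophages and dendritic cells, and CSF-3 (G-CSF) drives the formation and release of neutrophils. IL-1α and IL-1β bind the same receptor, which signals through MyD88 to NF-kB and AP-1, and the IL-1 receptor antagonist occupies that receptor without signalling. IL-6 and LIF signal through the shared subunit gp130 (Il6st) to STAT3. Transcription of most of these genes is inducible by NF-kB, AP-1 and C/EBP factors, and their mRNAs are short-lived. 4T1 tumors are known for a strong expansion of neutrophils and other myeloid cells in the host.

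The promoters of Csf2, Il1a and Lif are shown because Csf2 had one of the largest differences between lung and lymph node sub-clones, and Il1a and Lif were the pair that varied most alike (below). Each is the RefSeq sequence of GRCm38.p6 from 250 bases before to 50 after the annotated start of transcription, with the matched motif in capitals. Csf2 lies at chr11:54249850-54250149 on the minus strand, Il1a at chr2:129309923-129310222 on the minus strand and Lif at chr11:4257318-4257617 on the plus strand.
Csf2: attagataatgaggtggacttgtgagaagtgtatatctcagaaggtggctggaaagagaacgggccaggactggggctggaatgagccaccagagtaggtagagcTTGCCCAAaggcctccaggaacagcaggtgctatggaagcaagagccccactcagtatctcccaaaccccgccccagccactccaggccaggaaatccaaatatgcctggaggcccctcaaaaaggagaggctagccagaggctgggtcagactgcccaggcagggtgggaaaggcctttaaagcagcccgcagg
Il1a: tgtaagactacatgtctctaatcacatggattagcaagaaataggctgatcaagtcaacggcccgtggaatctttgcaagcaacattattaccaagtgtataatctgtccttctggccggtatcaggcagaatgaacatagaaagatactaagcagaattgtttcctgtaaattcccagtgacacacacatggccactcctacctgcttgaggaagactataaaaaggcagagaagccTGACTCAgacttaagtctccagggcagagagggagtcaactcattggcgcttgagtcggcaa
Lif: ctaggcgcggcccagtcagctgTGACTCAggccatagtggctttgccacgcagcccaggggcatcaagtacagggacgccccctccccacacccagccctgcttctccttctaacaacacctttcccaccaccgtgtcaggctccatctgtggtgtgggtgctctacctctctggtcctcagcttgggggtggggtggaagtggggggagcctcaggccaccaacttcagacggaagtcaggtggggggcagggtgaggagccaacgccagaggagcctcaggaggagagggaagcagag

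Of 5 motifs searched on both strands (NF-kB-type GGANNTTCC, CK-1-type GAGNTTCCA, AP-1-type TGANTCA, C/EBP-type TTGCNNAA and STAT-type TTCNNNGAA, where N is any base), Csf2 held the C/EBP-type letters TTGCCCAA at -145 to -138 from the start. Il1a held the AP-1-type letters TGACTCA at -12 to -6, and Lif held the same letters at -228 to -222. The AP-1-type motif was in 7.81% of 32851 promoters of this length, the C/EBP-type in 10.8%, the STAT-type in 8.3%, the NF-kB-type in 4.26% and the CK-1-type in 1.48%. Among the other cytokine genes, an NF-kB-type match stood in the promoters of Csf1 (GGAAAGTCC, at -154) and Il6 (GGATTTTCC, at -43). Il6 also held an AP-1-type match at -249 and a C/EBP-type match at -128, and Il1rn an AP-1-type match at -141 of the first of its 3 starts. The Il1b window held none of the 5 motifs. Promoters of 7 of the 8 genes matched the RefSeq table, and Csf3 is named only. The motifs can overlap in sequence, and a match describes letters only.

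Levels below are log2 intensities after subtraction of the average over both parental lines hybridized on that plate, averaged over the 3 or 4 arrays of a sub-clone, so 0 is the parental level and 1 is a doubling. The sub-clone was the replicate for differences between groups. A gene was tested if its mean log2 intensity reached the median of all probe sets (3.106, an intensity of 8.61), as 11562 genes and 6 of the 8 cytokine genes did. Il1rn and Il6 did not pass. Summed intensities were alike between arrays (6414229 to 6658225). An array cannot tell fewer expressing cells from less RNA per cell.

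The cultures had the markers of the labelled cell type. All 8 measured epithelial markers passed the filter, and Cdh1, the adherens junction cadherin, was at 828 to 2734 on the 48 arrays. The pan-leukocyte marker Ptprc was at 3.65 to 7.25, none of 7 neutrophil, 3 pan-leukocyte, 5 lymphocyte or 5 endothelial markers passed, and 2 of 7 fibroblast markers did. Of 9 macrophage markers, 4 passed (Cd68, Cd14, Csf1r and C1qa), while the macrophage-defining Adgre1 was at 2.46 to 4.52. The summed macrophage markers ranged over arrays from 218.4 to 322.1 in TV-LuM, 120.6 to 385.2 in AxLN-LuM, 269.8 to 549.4 in AxLN, 188.4 to 436.5 in MFP and 170.0 to 268.0 in parental cells. AxLN arrays thus reached the highest sums. The summed epithelial markers were 11392.6 to 15202.5 in TV-LuM, above all other arrays (7145.2 to 10317.1 in AxLN-LuM, 8162.1 to 10474.6 in AxLN, 8113.5 to 8719.1 in MFP and 8310.4 to 9500.8 in parental cells). The summed fibroblast markers, of which Pdgfra (27.0 to 413) and Col1a1 passed the filter, were 101.5 to 287.3 in TV-LuM, 71.1 to 355.4 in AxLN-LuM, 130.1 to 224.2 in AxLN and 223.7 to 458.8 in MFP, against 125.0 to 169.6 in parental cells. The part of these sums in the cytokine differences was not tested.

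Csf2 was high in all lymph node sub-clones and near the parental level in most lung sub-clones. Its level was -0.04, 1.52 and -0.47 in TV-LuM 1 day 14, 2 day 14 and 1 day 38. It was -0.12, -0.51 and 0.73 in AxLN-LuM 1 on days 14, 36 and 43, and 0.57 in the removed AxLN-LuM 5. AxLN sub-clones stood at 2.42 (tumor 1 day 7), 3.97 (tumor 2 day 7), 3.47 (tumor 2 day 14) and 2.11 (tumor 1 day 14, removed), and MFP tumors 1 and 2 at 0.98 and 2.93. No lung sub-clone of either route reached the lowest AxLN sub-clone, and TV-LuM 2 day 14 came closest. In intensities, the 3 arrays of AxLN tumor 2 day 7 were at 224, 210 and 275, against 9.23 to 17.5 on the 8 parental arrays. A second, dimmer probe set of Csf2 (intensities 5.3 to 26.07) varied alike over the 13 sub-clones (r = 0.90) with smaller differences. On it the removed AxLN-LuM 5 (0.80) lay above the removed AxLN tumor 1 day 14 (0.61) and just below AxLN tumor 1 day 7 (0.81). With the removed sub-clones counted, the separation of lung from AxLN sub-clones thus held for the brighter probe set only. Among sub-clones not marked as removed it held on the dimmer one too. There AxLN sub-clones were at 0.81 to 1.81 and lung sub-clones of both routes at -0.09 to 0.38.

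Csf3 was high in both MFP and all AxLN sub-clones and close to or below the parental level in lung sub-clones. TV-LuM sub-clones were at -0.50 (1 day 14), -0.20 (2 day 14) and -1.18 (1 day 38). AxLN-LuM 1 was at -0.08, 0.24 and -0.97 on days 14, 36 and 43, and the removed AxLN-LuM 5 at 0.26. AxLN sub-clones were at 1.68 (tumor 1 day 7), 1.27 (tumor 1 day 14, removed), 1.70 (tumor 2 day 7) and 2.16 (tumor 2 day 14), and MFP tumors 1 and 2 at 1.5 and 2.56. The lung and the tumor sub-clones did not overlap for this gene, on any array: the lung arrays had intensities of up to 167, and the MFP and AxLN arrays of at least 306. The parental lines differed in Csf3, with intensities of 102, 110, 93.2 and 110 in mCh/rL cells and 176, 150, 176 and 144 in GFP/fL cells.

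Csf1 ranged from -0.99 in TV-LuM 1 day 38 to 0.98 in AxLN tumor 2 day 7. All TV-LuM sub-clones were at or below the parental level (-0.06, -0.32 and -0.99), and all AxLN sub-clones above it (0.28, 0.56, 0.98 and 0.93). AxLN-LuM sub-clones lay on both sides, with -0.35, 0.41 and -0.42 in AxLN-LuM 1 on days 14, 36 and 43 and 0.83 in the removed AxLN-LuM 5. MFP tumors 1 and 2 were at -0.37 and 0.76.

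Il1a ranked 1 of 11562 genes by its spread between sub-clones, with an SD of 2.77 over the 13 sub-clones against a median SD of 0.25 for all genes. TV-LuM sub-clones were at -1.30, -2.17 and -2.91 (1 day 14, 2 day 14 and 1 day 38). AxLN-LuM sub-clones spread the widest, from -5.05 in AxLN-LuM 1 day 14 over -0.18 on day 43 and 0.51 on day 36 to 2.22 in the removed AxLN-LuM 5. AxLN tumor 1 was at 2.54 on day 7 and 3.12 on day 14 (removed), and tumor 2 at 1.73 and 3.32, all above the parental level. The 2 MFP tumors stood at opposite ends, with -2.88 in tumor 1 and 2.82 in tumor 2. The 3 arrays of AxLN-LuM 1 day 14 had intensities of 5.79, 9.06 and 6.87, around the median of all probe sets, whereas the 3 arrays of AxLN tumor 2 day 14 had 2265, 2319 and 2167. Parental mCh/rL cells had 291, 319, 290 and 311, and GFP/fL cells 193, 171, 181 and 157, so that the 2 parental lines did not overlap either.

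Il1b was dim, with intensities of 4.68 to 43.5, and its arrays scattered more within a sub-clone (SD 0.36) than those of the other 5 tested cytokine genes. TV-LuM sub-clones were at 0.87, -0.16 and -0.05, AxLN-LuM 1 at -0.55, 0.63 and -0.10 on days 14, 36 and 43, and AxLN-LuM 5 at 0.44. AxLN sub-clones were at 1.67, 1.02 (removed), 0.44 and 1.74, and MFP tumors 1 and 2 at -0.60 and 1.30. AxLN tumor 2 day 7 lay within the range of the lung sub-clones, so the groups overlapped. Il1rn, the antagonist, did not pass the filter: its intensities stayed between 3.33 and 8.43 on all arrays, and its sub-clone levels between -0.17 and 0.43.

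Lif ranged between -0.86 in AxLN-LuM 1 day 14 and 0.79 in the removed AxLN tumor 1 day 14. TV-LuM sub-clones were at 0.25, -0.02 and 0.15, AxLN-LuM 1 at -0.86, 0.12 and -0.02 on days 14, 36 and 43, and AxLN-LuM 5 at 0.73. AxLN sub-clones were at 0.29, 0.79 (removed), 0.26 and 0.52, and MFP tumors 1 and 2 at -0.38 and 0.36. Il6 did not pass the filter and had sub-clone levels of -0.17 to 0.41 outside 2 sub-clones. MFP tumor 2 was at 1.57, with intensities of 17.0, 3.52 and 12.5, and AxLN tumor 2 day 14 at 1.15, with 7.57, 4.95 and 9.35. Its highest array was in MFP tumor 2, whose 3 arrays spread widely.

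**Figure D1:**
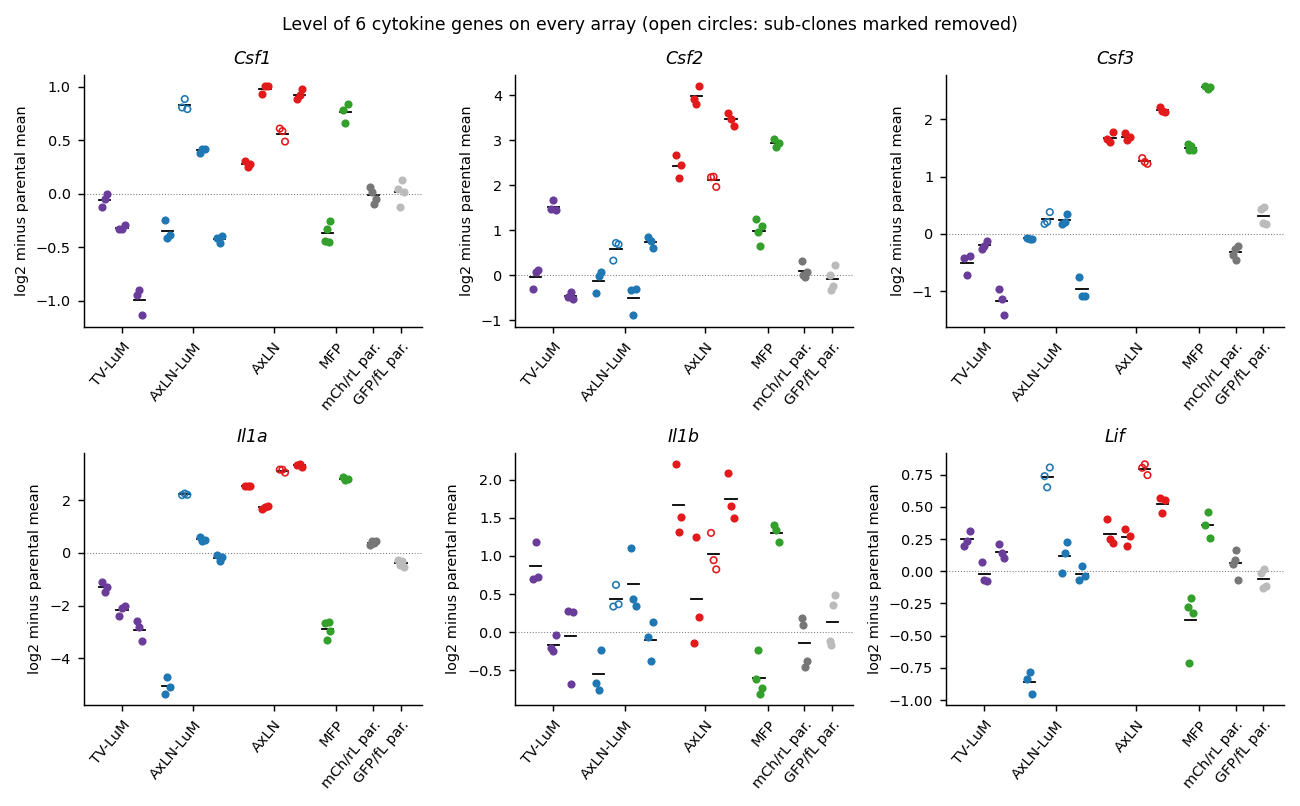
Level of the 6 cytokine genes that passed the filter on every array (y axis, log2 intensity minus the parental mean of the same plate), by sub-clone within each group (x axis; par., parental). Points are arrays, black lines sub-clone means and open circles sub-clones the labels mark as removed; the Csf3 arrays of lung sub-clones all lie below those of AxLN and MFP sub-clones, and Il1a spans -5.05 to 3.32.

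The comparison of AxLN-LuM with AxLN sub-clones sets cells grown from lung metastases against cells grown from lymph node tumors. The labels do not pair a lung metastasis with one of these tumors. The compared AxLN sub-clones are of days 7 and 14 and the AxLN-LuM sub-clones of days 14, 36 and 43. Only day 14 is shared, so site and time since injection cannot be fully told apart in the group differences. On day 14, Csf3 was at -0.08 in AxLN-LuM 1 and 2.16 in AxLN tumor 2. The removed AxLN-LuM 5 and AxLN tumor 1 of that day were at 0.26 and 1.27. Day 14 alone was not tested. All 6 tested cytokine genes had lower means in AxLN-LuM, but none passed limma's test at an adjusted p of 0.05, as 0% of the 11562 genes did. Csf2 averaged 0.03 ± 0.64 in AxLN-LuM and 3.29 ± 0.79 in AxLN (SD, n = 3 sub-clones each), a difference of -3.25 (SE 0.64, 95% interval -4.69 to -1.82, 9.53-fold) with an adjusted p of 0.289. With the dimmer Csf2 probe set the difference was -1.38. Csf3 averaged -0.27 ± 0.63 in AxLN-LuM and 1.85 ± 0.27 in AxLN, a difference of -2.11 (SE 0.37, interval -2.94 to -1.28, 4.33-fold, adjusted p = 0.289), which ranked 4 of 11562 by p. With plate as a covariate and the parental lines in the fit, 17 genes passed, among them Csf3 (-2.21, adjusted p = 0.0489), while Csf2 did not (adjusted p = 0.0615). In that fit MFP tumor 1 and the parental lines entered once per plate, as if separate replicates. The parental cultures, which were never implanted, also entered its estimate of the spread. Il1a averaged -1.57 ± 3.03 in AxLN-LuM and 2.53 ± 0.79 in AxLN, the third largest difference of all genes (-4.10, SE 1.55, interval -7.56 to -0.64, adjusted p = 0.403). Without AxLN-LuM 1 day 14 it was -2.36, and that of Lif was -0.31. The differences of Csf1, Il1b and Lif were -0.85, -1.29 and -0.61 (adjusted p of 0.433, 0.433 and 0.415).

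An unadjusted p under 0.05 was met by 6 of 6 cytokine genes, against 11.1% of all genes, and their median difference was -1.70, against 0.02 for all genes. The 6 genes were chosen with earlier results of these data known and varied together over the sub-clones (below). They are thus not 6 independent results. The 3 AxLN-LuM sub-clones did not overlap the 3 AxLN sub-clones, on the lower side, in Csf2, Csf3, Il1a and Lif (4 of 6, against 8.11% of all genes). With the removed sub-clones counted, Csf2 and Csf3 still did not overlap (2 of 6, against 0.51% of all genes), while Il1a and Lif did, since AxLN-LuM 5 was high in both. On the dimmer Csf2 probe set, however, Csf2 did overlap, with AxLN-LuM 5 at 0.80 and AxLN tumor 1 day 14 at 0.61. The differences with all 13 sub-clones were -2.82 for Csf2, -1.84 for Csf3, -3.30 for Il1a and -0.47 for Lif. Within plate 1 (2 AxLN-LuM and 1 AxLN sub-clone) they were -2.74, -1.60 and -4.81 for Csf2, Csf3 and Il1a. Within plate 2 (1 AxLN-LuM and 2 AxLN sub-clones) they were -2.99, -2.90 and -2.70. Csf1 differed between the plates, with -0.25 on plate 1 and -1.38 on plate 2.

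TV-LuM sub-clones reached the lung through the blood without passing the node. Being of days 14 and 38, they share only day 14 with AxLN sub-clones. Site and time since injection thus cannot be fully told apart in the group differences. On day 14, Csf3 was at -0.5 and -0.2 in TV-LuM 1 and 2. It was at 2.16 in AxLN tumor 2 and 1.27 in the removed AxLN tumor 1. Il1a was at -1.3 and -2.17 in these TV-LuM sub-clones and at 3.32 and 3.12 in these AxLN sub-clones. Day 14 alone was not tested. Against AxLN sub-clones, 0 of 6 cytokine genes and 0% of all genes passed, and all 6 had lower means in TV-LuM. With plate as a covariate and the parental lines in the fit, 45 genes passed, among them Csf3 (-2.47, adjusted p = 0.0274) and Csf2 (-2.95, adjusted p = 0.0498). MFP tumor 1 and the parental lines again entered that fit once per plate. In the fit without plate, Csf3 had the smallest p of all genes. It was at -0.62 ± 0.50 in TV-LuM and 1.85 ± 0.27 in AxLN (difference -2.47, SE 0.37, interval -3.30 to -1.64, 5.54-fold, adjusted p = 0.265). Csf2 averaged 0.34 ± 1.05 in TV-LuM and 3.29 ± 0.79 in AxLN (-2.95, SE 0.64, adjusted p = 0.307, and -1.23 with the dimmer probe set). Il1a averaged -2.13 ± 0.80 in TV-LuM and 2.53 ± 0.79 in AxLN (-4.66, SE 1.55, adjusted p = 0.373). Csf1 differed by -1.19 (SE 0.36, adjusted p = 0.323), Il1b by -1.06 (adjusted p = 0.504) and Lif by -0.23 (adjusted p = 0.775). An unadjusted p under 0.05 was met by 4 of 6 (all but Il1b and Lif), against 11.3% of all genes. The same limits on the choice and independence of the genes hold here. In 5 of 6 (all but Il1b) the 3 TV-LuM sub-clones lay below the 3 AxLN sub-clones, against 9.39% of all genes. For Lif the highest TV-LuM sub-clone was at 0.25 and the lowest AxLN sub-clone at 0.26. Within plate 1 (1 sub-clone of each group) the differences were -2.46, -2.18, -3.84 and -0.33 for Csf2, Csf3, Il1a and Csf1. Within plate 2 (2 of each) they were -3.19, -2.62, -5.07 and -1.61. These differences share their AxLN sub-clones with those of AxLN-LuM.

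**Figure D2:**
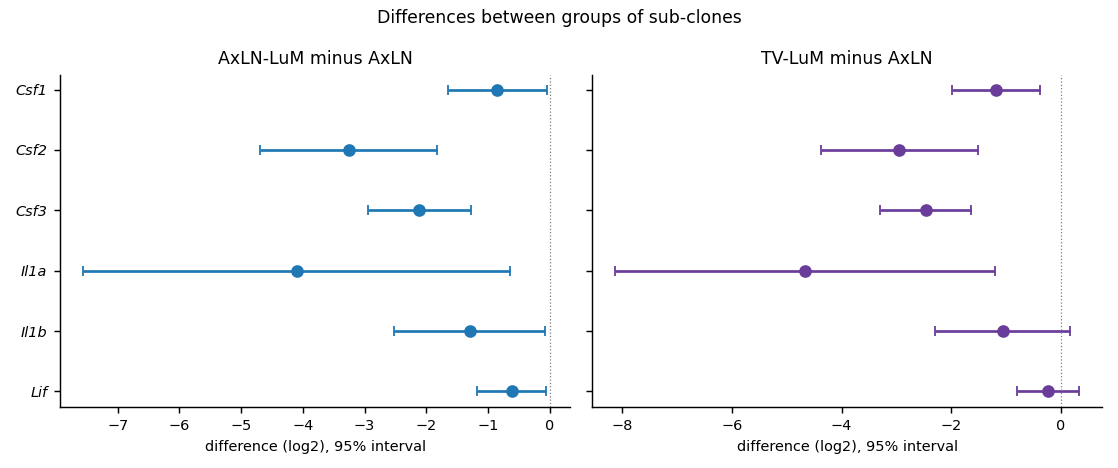
Difference in level between groups of sub-clones (x axis, log2) for the 6 tested cytokine genes, AxLN-LuM minus AxLN on the left and TV-LuM minus AxLN on the right, each over 3 against 3 sub-clones. Points are differences and bars 95% intervals of limma for each gene alone; Csf2 and Csf3 have intervals far below 0 in both, and the Il1a intervals are the widest.

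No difference between the 2 lung groups was detected in these genes. For TV-LuM minus AxLN-LuM, none of the 6 had an unadjusted p under 0.05 (against 10.1% of all genes, of which 0% passed after adjustment), and the median difference was -0.06. The interval for Csf3 was -1.19 to 0.47 and that for Il1a -4.01 to 2.90, so that the 3 sub-clones of each group bound a difference only within these limits.

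The comparison of lymph node with fat pad tumors rests on 2 MFP sub-clones that also differed from AxLN sub-clones in their reporter line and day. The MFP tumors were of day 28 and the AxLN tumors of days 7 and 14, so site, line and day cannot be told apart. Of the parental lines, mCh/rL had more Il1a than GFP/fL (0.79, SE 0.13, limma's adjusted p = 1.91e-05 over arrays) and less Csf3 (-0.63, SE 0.08, adjusted p = 7.43e-07). The other 4 tested cytokine genes did not pass, and 22.1% of all genes did. For AxLN minus MFP, 0 of 6 cytokine genes and 0% of all genes passed, and 0 of 6 had an unadjusted p under 0.05 (6.26% of all genes). Csf2 averaged 3.29 ± 0.79 in AxLN and 1.96 ± 1.37 in MFP (difference 1.32, SE 0.72, adjusted p = 0.774). It was 0.35 without MFP tumor 1 and 2.29 without MFP tumor 2, and 0.33 and 2.86 within plates 1 and 2. Csf3 averaged 1.85 ± 0.27 in AxLN and 2.04 ± 0.73 in MFP (-0.19, SE 0.42, adjusted p = 0.939), and its sign turned with each sub-clone's own parental line as the baseline (0.44). Il1a averaged 2.53 ± 0.79 in AxLN and 0.04 ± 3.93 in MFP (2.49, SE 1.74, adjusted p = 0.807), and was -0.29 without MFP tumor 1 and 5.28 without MFP tumor 2.

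Lung sub-clones also had less Csf3 on average than MFP sub-clones. AxLN-LuM minus MFP was -2.31 for Csf3 (SE 0.42, adjusted p = 0.637) and -1.93 for Csf2 (SE 0.72, adjusted p = 0.999), and 2 of 6 had an unadjusted p under 0.05, against 3.58% of all genes. TV-LuM minus MFP was -2.66 for Csf3 (SE 0.42, adjusted p = 0.438) and -1.62 for Csf2 (SE 0.72, adjusted p = 0.567), with 2 of 6 against 8.69%. In both, 0% of all genes passed after adjustment. With plate as a covariate and the parental lines in the fit, Csf3 passed in AxLN-LuM minus MFP (-2.14, adjusted p = 0.0384) and in TV-LuM minus MFP (-2.40, adjusted p = 0.0225). In that fit MFP tumor 1 entered once per plate, as if it were separate tumors. The Csf2 differences changed with the MFP tumor left out. AxLN-LuM minus MFP was -2.90 without MFP tumor 1, -0.96 without MFP tumor 2 and -0.13 on plate 2 alone, and TV-LuM minus MFP -2.59, -0.65 and -0.33. On the dimmer Csf2 probe set, MFP tumors 1 and 2 stood at 0.07 and 0.78. Lung sub-clones not marked as removed were there at -0.09 to 0.38. AxLN-LuM and MFP cells also carry different reporters, and with each sub-clone's own parental line as the baseline their Csf3 difference was -1.68.

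Each sub-clone was then set against both parental lines of its plate in one limma fit over the arrays. These p-values measure the spread between cultures of one sub-clone and not between tumors, and sub-clones of a plate share their parental arrays. Of 78 differences (6 genes in 13 sub-clones), 44 were higher, 18 lower and 16 did not pass. All 6 genes rose in AxLN tumor 1 day 7 (47.6% of all genes were called in either direction), AxLN tumor 1 day 14 (31.5%), AxLN tumor 2 day 14 (50.7%) and MFP tumor 2 (38.5%). In AxLN tumor 2 day 7, 5 rose and Il1b did not pass (53.5%). MFP tumor 1 had 2 genes higher, Csf2 and Csf3, and the other 4 lower (53.9%). On the dimmer Csf2 probe set, however, MFP tumor 1 stood at 0.07.

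In the lung the directions were mixed. TV-LuM 1 day 38 had 4 lower and 0 higher (51.3% of all genes called), TV-LuM 2 day 14 had Csf2 higher and Csf1 and Il1a lower (53.5%), and TV-LuM 1 day 14 had Il1b and Lif higher and Csf3 and Il1a lower (40.5%). AxLN-LuM 1 day 14 had Csf1, Il1a and Lif lower (45.2%), and AxLN-LuM 1 day 43 had Csf2 higher and Csf1 and Csf3 lower (41.5%). AxLN-LuM 1 day 36 had 4 higher and Csf2 lower (46.2%), with Csf2 intensities of 6.23 to 9.35, around the filter level. In the removed AxLN-LuM 5, 5 rose and Il1b did not pass (62.4%). On the dimmer Csf2 probe set, AxLN-LuM 1 stood at -0.03 and -0.02 on days 36 and 43. There TV-LuM 2 day 14 was at 0.38 and AxLN-LuM 5 at 0.80.

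By size, Il1a passed a 2-fold change in 11 of 13 sub-clones, Csf3 in 7, Csf2 in 6 and Il1b in 4, and Csf1 and Lif in none. Il1a fell in AxLN-LuM 1 day 14 (adjusted p = 2.63e-25). Since 2 of its 3 arrays were below the intensity at which genes were tested, the fall is given as at least 26.9-fold, with those arrays set to that intensity. Csf2 rose 15.7-fold in AxLN tumor 2 day 7 (SE 0.15 on the log2 scale, adjusted p = 6.09e-21) and 11.1-fold in AxLN tumor 2 day 14, ranks 12 and 13 of all genes by size. Its parental intensities (9.23 to 17.5) were close to the filter level of 8.61, so the size of these rises is uncertain. On the dimmer probe set the same sub-clones stood at 1.81 and 1.41 on the log2 scale. Csf3 rose 5.89-fold in MFP tumor 2 (adjusted p = 2.1e-21) and 4.47-fold in AxLN tumor 2 day 14 (adjusted p = 1.41e-19). In the AxLN sub-clones labelled tumor 2, Il1a was 3.32-fold over parental cells on day 7 and 9.98-fold on day 14. In those labelled tumor 1, it was 5.81-fold on day 7 and 8.72-fold in the removed sub-clone of day 14. Days 7 and 14 were single sub-clones of each tumor number, and the number need not mean the same tumor, so no trend was tested.

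Neighbours in the order of levels were separated for some genes and not for others. For Il1a, 3 of 14 neighbouring pairs in the order of the 13 sub-clones and 2 parental lines had overlapping arrays: AxLN-LuM 1 day 36 with mCh/rL parental cells, AxLN-LuM 1 day 43 with GFP/fL parental cells, and MFP tumor 1 with TV-LuM 1 day 38. For Csf3, 6 of 14 pairs overlapped, for Csf1 and Csf2 8, for Lif 11, and for Il1b, Il1rn and Il6 all 14. The SD between sub-clones was 1.52 for Csf2, 1.23 for Csf3, 0.79 for Il1b, 0.63 for Csf1 and 0.44 for Lif, ranks 29, 91, 415, 720 and 1674 of 11562 genes. The SD between arrays of one sub-clone was 0.20, 0.11, 0.36, 0.07 and 0.10 for the same genes, and 0.19 for Il1a.

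Sub-clones high in one of these cytokines tended to be high in others. Over the 13 sub-clones, all 15 pairs of the 6 tested genes had r above 0, and 12 had a Benjamini-Hochberg adjusted permutation p under 0.05 for Pearson's r (11 for Spearman's rho). Of all pairs of the 11562 genes, 50.4% had r above 0, and 4.75% reached 0.59, the lowest r among the 12 pairs. Il1a and Lif were the closest pair (r = 0.86, permutation p = 4e-05, adjusted p = 0.0006; rho = 0.87, permutation p = 0.00027, adjusted p = 0.00255). Their r was 0.83 without the 2 sub-clones farthest from the median of Il1a, and 0.905 and 0.758 within plates 1 and 2 (6 sub-clones each). Csf2 and Csf3 had r = 0.81 (permutation p = 0.00129, adjusted p = 0.00484; rho = 0.78, permutation p = 0.00232, adjusted p = 0.00696), 0.78 without the 2 farthest, and 0.936 and 0.92 within the plates. Il1a also varied with Il1b and with Csf1 (r = 0.84 each, adjusted p = 0.00305 each). Csf3 and Lif were the least alike (r = 0.31, adjusted p = 0.315). The sub-clones share baseline arrays and the 4 groups, so they are not fully independent points. MFP sub-clones came from GFP/fL cells and AxLN and AxLN-LuM sub-clones from mCh/rL cells. These lines differed in Il1a and Csf3, and the part of this in the correlations was not tested. The removed AxLN-LuM 5 separated the pairs: it had Il1a, Csf1 and Lif at the level of AxLN sub-clones, and Csf2 and Csf3 below all AxLN sub-clones. For Csf2 this held for the brighter probe set and not for the dimmer one.

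**Figure D3:**
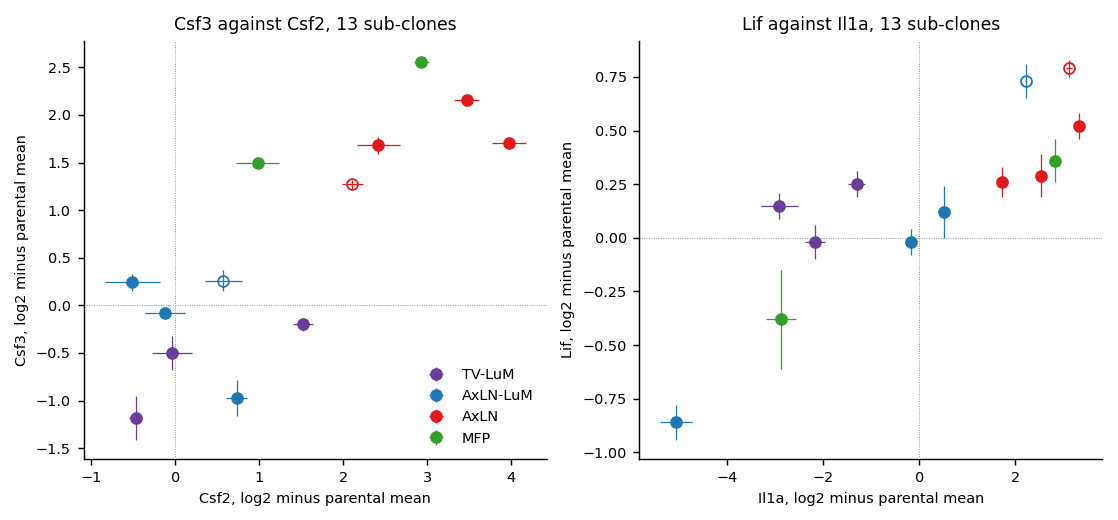
Sub-clone means of Csf3 against Csf2 (left) and Lif against Il1a (right), all as log2 minus the parental mean, for 13 sub-clones coloured by group. Bars are the SD over 3 or 4 arrays and open circles sub-clones marked as removed. Csf2 and Csf3 (r = 0.81) place every AxLN and MFP sub-clone above the lung sub-clones in Csf3, and on the right AxLN-LuM 1 day 14 lies lowest in both genes (r = 0.86).

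Genes around these cytokines were compared by lists of receptors, related ligands, processing enzymes, transcription factors, their targets and mRNA decay factors. In AxLN-LuM minus AxLN, 0 genes of any list passed after adjustment. Counts at an unadjusted p under 0.05 below are to be read against 11.1% of all genes in AxLN-LuM minus AxLN and 11.3% in TV-LuM minus AxLN. The NF-kB targets stood furthest from all genes: 16 of 17 tested were lower in AxLN-LuM, 12 of them with an unadjusted p under 0.05, with a median of -1.44 against 0.02 for all genes. The siderophore-binding lipocalin Lcn2 differed by -4.99 (SE 0.82), the neutrophil chemokines Cxcl5 and Cxcl1 by -4.11 (SE 1.00) and -3.08 (SE 0.69), and the collagenase Mmp13 by -3.32 (SE 0.56), with adjusted p of 0.289 to 0.326. Against AxLN, TV-LuM had 17 of 17 lower, 13 of them with an unadjusted p under 0.05, and a median of -1.22. The NF-kB factors and feedback genes had a smaller median (18 tested, -0.21, 3 with an unadjusted p under 0.05, all lower, a share near that of all genes). In TV-LuM minus AxLN 4 of 18 were lower at that p, with a median of -0.34. The 3 lower in AxLN-LuM minus AxLN were Nfkbia, Nfkbiz and Irak2. Nfkbia, the inhibitor IκBα, differed by -0.68 (SE 0.17, adjusted p = 0.328) and the IL-1 receptor kinase Irak2 by -0.84 (SE 0.25). Nfkbiz, a nuclear IκB that aids induction of some NF-kB targets, differed by -1.50 (SE 0.48). Ikbke, an IκB kinase relative, differed by -0.94 (SE 0.46) in the same comparison. In TV-LuM minus AxLN, Nfkbia, Nfkbiz, Irak2 and Ikbke were at -0.90, -1.66, -0.65 and -0.58.

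Of 10 AP-1 and C/EBP genes, 5 were lower and 1 higher in AxLN-LuM than in AxLN at an unadjusted p under 0.05 (median -0.41). These included Atf3 (-1.41, SE 0.43), Cebpd (-1.15, SE 0.42), Junb (-0.81, SE 0.23) and Cebpb (-0.77, SE 0.28), with adjusted p of 0.348 to 0.398. The gene that was higher, Fosb (0.73), is named after its value was seen. In TV-LuM minus AxLN the list was split, with 5 genes lower and 5 higher, 2 and 1 of them at that p, and a median of -0.08. For Atf3, TV-LuM minus AxLN had the other sign (0.38). In AxLN-LuM minus AxLN, of 4 tested genes of IL-1 processing, the inflammatory caspase Casp4 was at -2.26 (SE 0.44, adjusted p = 0.289). Casp1, which cleaves pro-IL-1β, was at -1.03 (SE 0.68), and the pore-forming Gsdmd and Gsdme at -0.60 and 0.45. Of 8 mRNA decay genes, the ribonuclease Zc3h12a, which degrades Il6 mRNA among others, was at -1.61 (SE 0.39, adjusted p = 0.327). Hnrnpd and Elavl1, which bind AU-rich elements, were at 0.47 and 0.41.

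The receptors of these cytokines were not called in AxLN-LuM minus AxLN either. Of 9 tested, none had an unadjusted p under 0.05 (median -0.17). The largest differences were in the oncostatin M receptor Osmr (-1.01, SE 0.49), Lifr (0.66, SE 0.70), the decoy receptor Il1r2 (-0.63, SE 0.48) and Csf1r (-0.59, SE 0.42). Of 9 related ligands, 1 had an unadjusted p under 0.05, the share seen over all genes, and the median was 0.03. It was Il23a, a subunit of IL-23 (-0.90, SE 0.28, adjusted p = 0.348). Tnf, Il18 and Clcf1 were at -0.55, -0.54 and 0.50. Of 10 genes of the STAT3 response, the kinase Pim1 was at -1.32 (SE 0.39, adjusted p = 0.348) and the feedback inhibitor Socs1 at 0.58 (SE 0.20, adjusted p = 0.373), with a median of -0.14. Stat3 and the repressor Bcl6 were at -0.36 and -0.32.

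**Figure D4:**
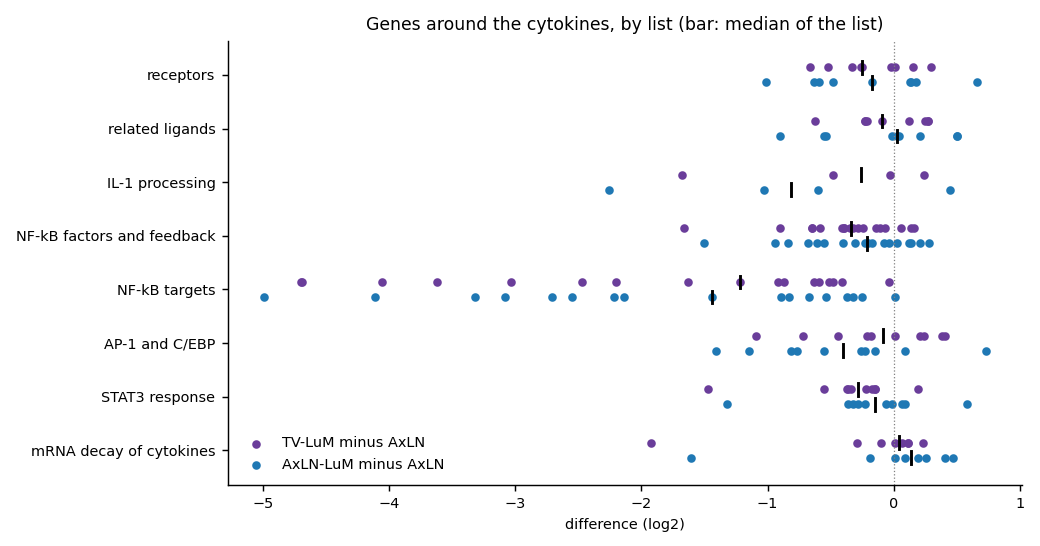
Difference in level (x axis, log2) of each tested gene of 8 lists around the cytokines, TV-LuM minus AxLN in purple and AxLN-LuM minus AxLN in blue, with black bars at the list medians. The NF-kB targets have medians of -1.22 and -1.44, the other lists lie nearer 0, and both comparisons share their AxLN sub-clones.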

How the data were processed

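RNA of 48 cultures was hybridized to Affymetrix Mouse Gene 2.1 ST arrays. Per the submitters' processing notes and the methods, RMA in Affymetrix Expression Console was used by the authors, and the 2 plates were joined after scaling to their cumulative expression. The authors deposited linear intensities (1.11 to 10561.01), and log2 values were computed here. A scaling of whole plates can leave plate differences in single genes, so parental cells of the plate were subtracted.

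Of 41345 probe sets, 23521 had a single symbol in the platform annotation, 1820 had several and 16004 none, and 23328 of the first were matched to reference genes by Entrez ID. The brightest protein-coding probe set per gene over the 48 arrays was used. The labels give the plate of 12 arrays; column order gave that of the remaining 36 (24 arrays per plate). Each array's deviation along the parental plate difference over 2000 probe sets was checked against it (highest slope on plate 1 -0.126, lowest on plate 2 0.167). No 2 arrays were identical. Arrays of one sub-clone are labelled as biological replicates with no statement of separate tumors.

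Groups were compared with limma 3.58.1 in R 4.3.3 (lmFit and eBayes) on the means of the 11 sub-clones not marked as removed (7 residual and 3.08 prior degrees of freedom), and sub-clones with parental lines in a fit over 48 arrays (30 and 2.48), with Benjamini-Hochberg adjustment over 11562 genes and a threshold of 0.05. Differences are the first-named group minus the second. Correlations used 100000 permutations, two-sided, in Python 3.11.15 with scipy 1.17.1. The fits were tested on simulated data. Precision is limited by how many arrays and sub-clones there are.

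The cytokine genes, the lists and the comparisons were chosen with earlier results of these data known, so no list is independent support. Named were the 8 cytokine genes, up to 4 genes per list with the largest difference between AxLN-LuM and AxLN, and for each tested cytokine gene the 3 genes with the highest r. Alternatives were other baselines, scalings, filters, probe sets, blocks, plates and left-out sub-clones or arrays, and the Methods' screen, of which the conditions of 1.5-fold or 0.5-fold means and of no overlap with parental arrays were applied and that on the range over samples was not. The dimmer Csf2 probe set was added after the data had been seen.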

Additional observations from a re-analysis of the deposited data

Results flagged for a closer look

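Of 40 groups of 4 or more values tested for one value far from the others, 0 were flagged, where chance would flag about 1 in 20. In 4 cases every sub-clone of one group lay on one side of the parental level and every sub-clone of the other group on the opposite side, removed sub-clones included. The share of all genes that meet this rule was not counted, so the 4 cases cannot be read against a background. Sides were taken from sub-clone means. In limma's fit over arrays, TV-LuM 1 day 14 in Csf1 (-0.06, adjusted p = 0.443) and TV-LuM 2 day 14 in Csf3 (-0.20, adjusted p = 0.0663) did not pass against parental cells. Csf1 means were below the parental level in 3 of 3 TV-LuM sub-clones and above it in 4 of 4 AxLN sub-clones (means -0.46 and 0.69, limma's difference over the sub-clones not marked as removed -1.19, adjusted p = 0.323). Csf3 did the same in TV-LuM and AxLN (means -0.62 and 1.70; difference -2.47, adjusted p = 0.265) and in TV-LuM and MFP (means -0.62 and 2.03; difference -2.66, adjusted p = 0.438). Il1a had means of -2.13 in TV-LuM and 2.68 in AxLN (difference -4.66, adjusted p = 0.373). Each difference was tested by limma over sub-clone means and did not pass after adjustment over all genes. With plate as a covariate and the parental lines in the fit, both Csf3 differences passed (TV-LuM minus AxLN -2.47, adjusted p = 0.0274, and TV-LuM minus MFP -2.40, adjusted p = 0.0225). Those of Csf1 and Il1a did not (adjusted p of 0.107 and 0.141). MFP tumor 1 and the parental lines entered that fit once per plate, as if separate replicates. The reporter line of the TV-LuM cells is not given, and the parental lines themselves differed in Csf3 and Il1a; the part of this in these cases was not tested.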

How the results depend on the processing

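With the sub-clone as the replicate, 0 of 6 cytokine genes were called in AxLN-LuM minus AxLN. With arrays as replicates 6 were called without a block, 6 with the replicate block (the replicate number as a covariate), 5 with a random block for sub-clones (correlation 0.778) and 1 with plate as a covariate on means per sub-clone and plate, parental lines included. The corresponding counts were 5, 5, 4 and 2 for TV-LuM minus AxLN, 2, 2, 1 and 1 for AxLN-LuM minus MFP, and 3, 3, 1 and 1 for TV-LuM minus MFP. For AxLN minus MFP 1 was called without a block and 1 with the replicate block, and for TV-LuM minus AxLN-LuM 1 without a block. Over all genes, AxLN-LuM minus AxLN had 0 calls, against 3274 without a block, 3107 with the replicate block, 453 with the random block and 17 with plate as a covariate. Arrays of one sub-clone are not independent tumors, and the fit with plate as a covariate counts MFP tumor 1 and the parental lines once per plate. Csf2 was -3.25 in the 3 fits over arrays (adjusted p from 2.08e-07 to 6.57e-05), Csf3 -2.11 (2.95e-08 to 1.23e-05) and, with plate as a covariate, -2.21 (0.0489), and Il1a -4.10 (0.000795 to 0.00754). Under the other alternatives adjusted p ranged from 0.0615 to 1 for Csf2, 0.141 to 0.726 for Csf3 and 0.212 to 1 for Il1a. Same-numbered samples did not deviate together (mean r 0.008, against -0.004 for other numbers), so the numbers do not pair the samples, and the replicate block left all 64 called differences from parental cells as they were.

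Leaving out 1 sub-clone gave -3.69 to -2.91 for Csf2, -2.37 to -1.76 for Csf3 and -5.14 to -2.36 for Il1a in AxLN-LuM minus AxLN. For AxLN minus MFP it gave 0.35 to 2.29 for Csf2, -0.71 to 0.32 for Csf3 and -0.29 to 5.28 for Il1a. Csf3, at 0.32 without MFP tumor 2, also turned to 0.44 with the own parental line as baseline, 0.07 with plate as a covariate and 0.43 on plate 2 alone. The cause was not tested. Against parental cells, the Methods' screen called 3 in place of 6 genes in MFP tumor 1, 1 in place of 3 in AxLN-LuM 1 day 14, 2 in place of 4 in TV-LuM 1 day 14 and 1 in place of 5 in AxLN-LuM 1 day 36. The last had 3 with no filter, 3 with its own line and 2 to 3 with 1 replicate left out; TV-LuM 1 day 14 had 2 to 4 (2 without replicate 2). Of 64 called differences from parental cells or between the parental lines, 12 were lost under at least 1 setting, 11 of them under 2-fold, and 0 turned. Among differences between groups, 400 values kept direction and side of the threshold, 48 passed it and 5 turned.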

Other observations

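For each tested cytokine gene, the 3 genes most alike over the 13 sub-clone means are given as a description, since they were picked from 11562 genes by their r and the sub-clones share their parental line and baseline. Il1a was closest to the neutrophil chemokine Cxcl5 (r = 0.93), the NF-kB feedback inhibitor Tnfaip3, also called A20 (0.92), and the chemokine Cxcl1 (0.91). Tnfaip3 was also among the 3 closest to Il1b (0.90), after Ankrd13d (0.92) and with Atg9b (0.90). Csf2 was closest to the collagenase Mmp13 (0.90), Zbtb48 (0.89) and Cxcl1 (0.88). Csf3 was closest to the ribonuclease Zc3h12a (0.90), Mmp13 (0.89) and the immediate early gene Ier3 (0.88). Mmp13 and Cxcl1 thus each stood in the lists of 2 cytokine genes.

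Csf1 and Lif had other neighbours. Csf1 was closest to the volume-regulated anion channel subunit Lrrc8d (0.93), Fez2 (0.90) and the metalloreductase Steap2 (0.89). Lif had the highest values of all, with Klhl15 (0.96), the kinase Plk2 (0.95) and Pip5k1a (0.93), which makes phosphatidylinositol bisphosphate.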
